A study of Mus musculus with 20 samples.

Results

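Zbp1, which encodes a sensor of left-handed (Z-form) nucleic acids, and 9 antiviral genes stimulated by type I interferon (Ifit1, Ifit2, Ifit3, Isg15, Irf7, Mx1, Oasl2, Rsad2 and Usp18) were followed through overloaded and sham-operated mouse plantaris muscle with or without a miR-1 mimic. These are 10 of the 54532 genes in the count tables, and all 10 passed the filter on low counts in each comparison. Zbp1 was chosen by its log2 fold change and adjusted p between mimic and control after overload, and the antiviral genes were then set beside it. The members' values in that contrast, and in any contrast that uses the same mimic libraries, are therefore given as a description with no test.

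The mice were male C57BL/6J, 5 months old, and had bilateral sham surgery or mechanical overload (MOV), in which synergist muscles are removed so that the plantaris bears more load. In every one of the 10 mice the left plantaris had received a lentivirus with a scrambled sequence (control) and the right plantaris a lentivirus with the miR-1 mimic, both with a mouse CMV promoter and TurboGFP as reporter, and muscles were collected at day 10. The 4 groups (control and mimic legs after sham surgery, control and mimic legs after MOV, with 5 libraries each) thus all carried a lentivirus, and the virus reached only part of the fibres. Libraries were numbered 1 to 5 within a group, and since the labels do not say that equal numbers came from 1 mouse, differences are described here as between legs of equal replicate number.

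Type I interferons bind the receptor made of Ifnar1 and Ifnar2, and the kinases Jak1 and Tyk2 then switch on the complex ISGF3, of which Stat2 and Irf9 are parts. ISGF3 binds interferon-stimulated response elements (ISRE) before antiviral genes, while interferon-gamma acts at gamma-activated sites (GAS) and through Irf1, with overlapping targets. Zbp1 is itself an interferon-stimulated gene, and its protein can recruit Ripk3, which activates Mlkl in necroptosis, a lytic form of cell death.

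The RefSeq promoter table (GRCm38.p6) held 7 of the 10 members, without Zbp1, Mx1 and Usp18. The letters GAAANNGAAA of the ISRE, on either strand, occurred within the 250 bases before the start in 4 of these 7 genes, against 3.46% of all 27025 genes in the table (2.98% of 32851 promoters). Isg15 held 3 such matches, which overlap each other, Ifit1 and Ifit3 held 2 each, and Rsad2 held 1. The letters TTCNNNGAA of the GAS occurred only before Ifit2 among the 7, against 8.13% of all genes. Oasl2, Irf7 and Ifit2 had no ISRE match. The list is of interferon-stimulated genes, so a match is not independent of the choice of genes. For the genes with a match whose window lies before the outermost annotated start, the matches with their flanking bases are printed. The printed stretches stop short of the start and run 5′ to 3′ on the strand of the gene, with the matched letters in capitals. They lie at chr4:156200835-156200936 (minus strand), chr12:26456523-26456612 (minus strand) and chr19:34640745-34640853 (plus strand), respectively.
Isg15: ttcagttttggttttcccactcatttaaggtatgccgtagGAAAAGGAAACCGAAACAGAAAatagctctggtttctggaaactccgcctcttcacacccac
Rsad2: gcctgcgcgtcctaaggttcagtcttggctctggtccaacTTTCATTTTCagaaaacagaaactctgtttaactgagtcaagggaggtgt
Ifit1: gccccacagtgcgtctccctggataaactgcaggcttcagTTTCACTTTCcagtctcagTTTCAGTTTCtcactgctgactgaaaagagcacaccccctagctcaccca

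The ISRE letters also occurred before 10 of 24 other antiviral genes and 8 of 16 interferon-gamma genes with a promoter in the table, and before 0 of 11 leukocyte and 0 of 7 muscle fibre markers. A match of letters is a description of the window and not a bound site.

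The libraries held between 12036360 and 23056525 counts on genes. Muscle fibre markers were high in every library, with Acta1, the skeletal muscle actin, at 13550 CPM or more (CPM are counts scaled to the size of the library). Libraries of 1 group differed by a chi-square per gene of at least 12.68 over 40 pairs and were all counted as separate. CPM values below are after TMM normalization over the 20 libraries, and p-values measure the spread between these libraries only.

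Zbp1 (chr2:173206612-173218959 in GRCm38.p6) stood at 1.79, 2.87, 4.95, 5.99 and 14.8 CPM in sham control replicates 1 to 5. In sham mimic it stood at 1.90, 2.26, 10.2, 4.29 and 19.7 CPM. After overload it was at 5.20, 18.7, 4.74, 16.5 and 0.429 CPM in MOV control, the last being 6 counts. In MOV mimic it was at 19.0, 55.7, 7.64, 71.5 and 3.74 CPM. Replicates 2 and 4 of MOV mimic lay above every other library, and replicate 5 of MOV control lay below every other library. Group means were 6.08 ± 5.15 CPM for sham control and 7.66 ± 7.49 for sham mimic, then 9.10 ± 7.99 for MOV control and 31.5 ± 30.4 for MOV mimic (SD, n = 5). The SD came close to the mean in each group, and no pair of groups was without overlap.

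Irf7, the transcription factor that amplifies type I interferon production (chr7:141263183-141266499), stood at 6.69, 10.6, 15.3, 12.8 and 18.2 CPM in sham control and at 7.24, 8.52, 18.2, 10.1 and 24.9 CPM in sham mimic. It was at 11.5, 18.3, 14.0, 20.7 and 5.79 CPM in MOV control and at 16.8, 76.2, 9.17, 38.2 and 6.85 CPM in MOV mimic. The libraries high and low in Irf7 were largely those high and low in Zbp1.

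Ifit1, whose protein binds viral RNA ends (chr19:34640889-34650009, overlapping Ifit1bl1), stood at 2.72, 6.42, 6.70, 8.45 and 14.9 CPM in sham control and at 4.49, 4.00, 9.35, 6.03 and 18.1 CPM in sham mimic. It was at 7.28, 8.45, 6.45, 11.8 and 2.93 CPM in MOV control and at 6.01, 39.4, 4.01, 24.7 and 2.85 CPM in MOV mimic. Replicates 2 and 4 of MOV mimic were high and the other 3 lay within the range of MOV control or just under it.

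Ifit3, of the same family (chr19:34583119-34588982), stood at 6.23, 8.75, 9.15, 8.75 and 26.4 CPM in sham control and at 4.65, 5.10, 17.0, 6.85 and 62.6 CPM in sham mimic. It was at 9.70, 15.9, 5.43, 22.6 and 7.44 CPM in MOV control and at 20.6, 58.8, 5.73, 39.1 and 8.05 CPM in MOV mimic. Its highest library was replicate 5 of sham mimic, not an overloaded one. Reads of Ifit3 can be shared with its near copy Ifit3b, which ranged from 1.39 to 28.5 CPM, and the handling of such reads was not stated.

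Mx1, whose product restricts influenza-like viruses (chr16:97447035-97462906), is annotated as a transcribed pseudogene in the reference, and its lowest library, with 4 counts, was the lowest of any member. It stood at 0.311, 3.91, 4.20, 2.76 and 4.64 CPM in sham control and at 0.990, 0.812, 3.44, 3.86 and 2.65 CPM in sham mimic. It was at 3.03, 7.14, 1.97, 0.572 and 1.22 CPM in MOV control and at 2.98, 16.7, 1.08, 6.27 and 4.76 CPM in MOV mimic. Mx1 was low in replicate 4 of MOV control, where Zbp1 was high.

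The other 5 members overlapped between all groups in the same way. Oasl2, of the oligoadenylate synthetase-like family, ranged from 3.42 to 77.6 CPM. Isg15, a ubiquitin-like protein that is coupled to other proteins, ranged from 1.01 to 16.0 CPM (its gene overlaps Gm46878). Usp18, which removes Isg15 and dampens receptor signalling, ranged from 2.32 to 14.6 CPM (its gene overlaps Gm44148). Rsad2, or viperin, ranged from 2.50 to 20.2 CPM, and Ifit2 from 3.00 to 32.7 CPM. These genes lie at chr5:114896926-114912245 (Oasl2), chr4:156199424-156200818 (Isg15), chr6:121245906-121270917 (Usp18), chr12:26442743-26456452 (Rsad2) and chr19:34550550-34576534 (Ifit2), all GRCm38.p6. Replicate 2 of MOV mimic was the highest of 20 libraries for 8 of the 10 members, replicate 4 of MOV mimic for Zbp1 and replicate 5 of sham mimic for Ifit3.

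**Figure D1:**
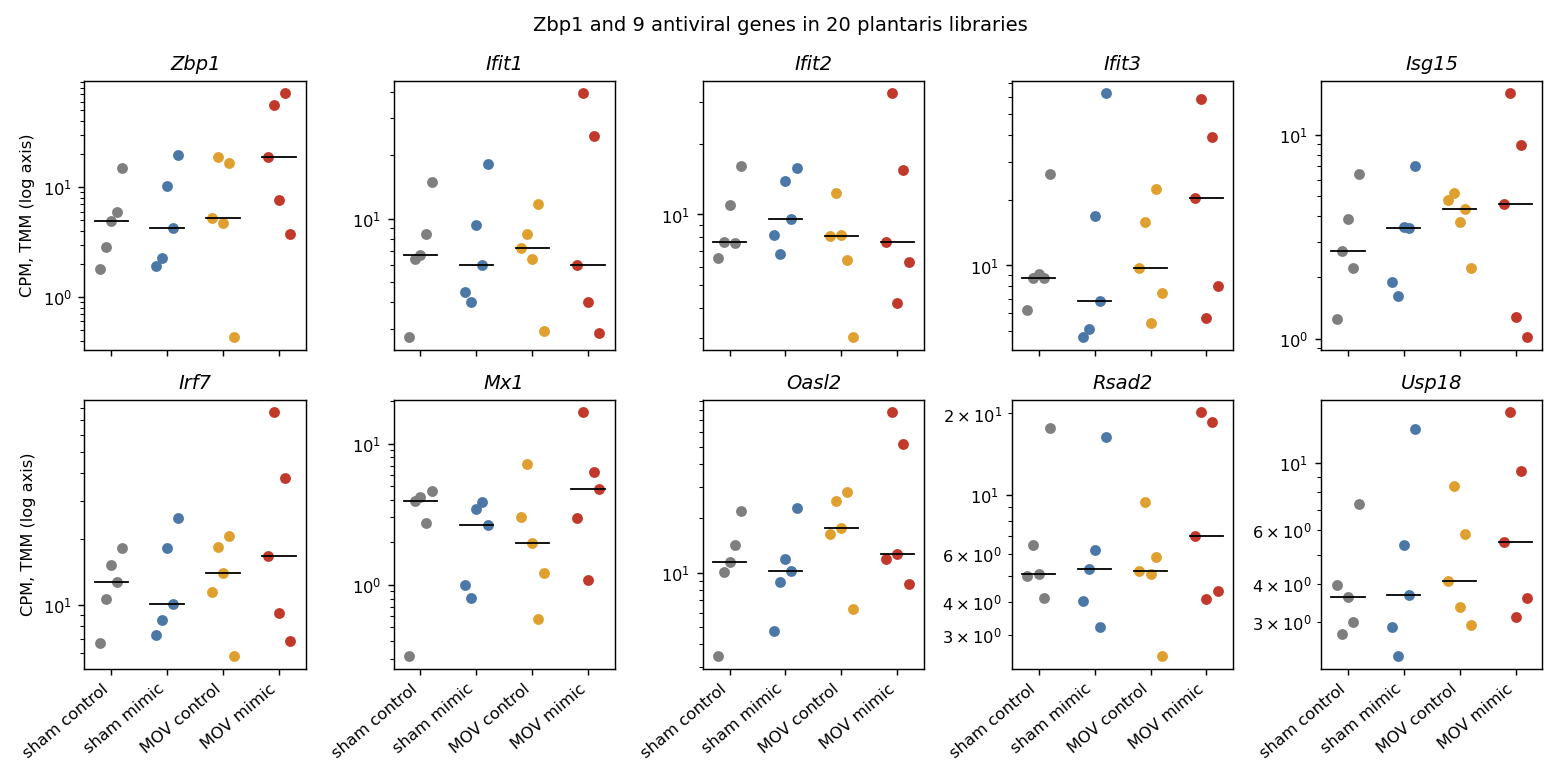
CPM (log axis) of Zbp1 and the 9 antiviral genes in each library, by group; points are libraries ordered by replicate number and bars are group medians (n = 5). The groups overlap for every gene, and Zbp1 in MOV mimic reaches 71.5 CPM against at most 18.7 in MOV control.

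The comparison of sham mimic with sham control asked whether the mimic moved these genes in muscle that was not overloaded. None of the 10 members was called by edgeR's quasi-likelihood test at an adjusted p under 0.05 (0 of 10, against 0% of 14746 genes, of which 254 had an unadjusted p under 0.05). DESeq2 also called 0 genes, and 283 had an unadjusted p under 0.05 there. For Zbp1 the log2 fold change was 0.34 (SE 0.68, edgeR adjusted p = 1.0). The antiviral genes lay between -0.42 for Mx1 and 0.70 for Ifit3, and 7 of the 10 members were above 0, against 50.2% of all genes. Without replicate 5 of sham mimic, the log2 fold change of Zbp1 was -0.37 and that of Ifit3 -0.49.

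The comparison of MOV control with sham control asked how overload alone moved them. It shares the 5 MOV control libraries with the contrast by which Zbp1 was chosen. No member was called (0 of 10, against 0.00668% of 14974 genes by edgeR, which is the single gene Nos1, lower in MOV control and named, like other genes outside the lists, after its value was seen, with 2726 at an unadjusted p under 0.05). DESeq2 called 6.1% of the genes and 0 of the 10 members. Zbp1 had a log2 fold change of 0.59 (SE 0.73, edgeR adjusted p = 0.705). Oasl2 had the largest at 0.61 (SE 0.43, edgeR adjusted p = 0.480), and Rsad2 the lowest at -0.44 (SE 0.43, edgeR adjusted p = 0.628). Of the 10 members, 6 were above 0 with a median of 0.10, against 54.2% and a median of 0.04 over all genes. Leaving out single libraries moved the value of Zbp1 between 0.15 (without MOV control 2) and 1.22 (without sham control 5), still with no call.

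MOV mimic against MOV control is the contrast that chose Zbp1, so its values are a description. All 10 members were higher in MOV mimic, with a median log2 fold change of 1.01 against -0.01 over all genes, of which 49.3% were above 0. Zbp1 had 1.78, Mx1 1.19, Ifit3 1.12, Irf7 1.07, Ifit1 1.07 and Rsad2 0.95. Oasl2, Ifit2, Isg15 and Usp18 followed with 0.81, 0.80, 0.66 and 0.56. edgeR called 0% of 15220 genes here, with 641 at an unadjusted p under 0.05, and DESeq2 called 3 (Snord91a, Ypel2 and Entpd4, all lower in MOV mimic). With equal replicate numbers as a block, DESeq2 called 127 genes (84 higher and 43 lower in MOV mimic) and edgeR 0. The median CPM was higher in MOV mimic than in MOV control for 7 members and lower for Ifit1, Ifit2 and Oasl2. Without replicate 2 of MOV mimic the log2 fold changes were 1.46 for Zbp1, 0.34 for Ifit1, 0.33 for Irf7, 0.17 for Oasl2 and -0.05 for Isg15. For Rsad2, Ifit3, Mx1, Ifit2 and Usp18 they were then 0.59, 0.58, 0.43, 0.13 and 0.13. Without replicate 2 of MOV control, Mx1 was at 1.91 and Usp18 at 0.84. Without replicate 4 of MOV mimic that of Zbp1 was 1.25, and without replicate 5 of MOV control, where it had 6 counts, 1.48.

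MOV mimic against sham mimic shares the MOV mimic libraries with that contrast and is likewise described. The 10 members had log2 fold changes above 0, with 2.03 for Zbp1, 1.48 for Oasl2, 1.43 for Mx1, 1.10 for Irf7 and 0.30 for Ifit2 as the lowest, and a median of 0.87 against 0.02 over all genes. Without replicate 2 of MOV mimic those of Ifit2, Ifit3 and Usp18 were -0.37, -0.08 and -0.01, those of Oasl2, Mx1 and Irf7 were 0.84, 0.67 and 0.35, and those of Rsad2, Isg15 and Ifit1 were 0.27, 0.15 and 0.15. Without replicate 5 of sham mimic, those of Ifit3, Ifit1, Rsad2 and Usp18 were 1.65, 1.36, 1.21 and 1.02, and Zbp1 stayed between 1.498 and 2.733 with any single library left out. Over all single libraries left out, Ifit2 ran from -0.374 to 0.525 and Ifit3 from -0.082 to 1.65. edgeR called 0% of 14918 genes, with 1997 at an unadjusted p under 0.05, and DESeq2 called 223 (1.49%). Among the leukocyte markers 9 of the 10 tested were above 0 here, with a median of 1.11, and DESeq2 called 3 of them higher (Nkg7, Cd8a and Flt3) along with the interferon-gamma gene Ciita. Their part in the members' values was not tested. Whether the effect of the mimic differed between the surgeries was not tested for these members.

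Taking mimic minus control in legs of equal replicate number, the log2 CPM of Zbp1 differed by 1.85, 1.57, 0.68, 2.11 and 2.82 in MOV replicates 1 to 5 and was higher in the mimic leg in 5 of 5. In sham it differed by 0.08, -0.33, 1.02, -0.47 and 0.41, higher in 3 of 5. The mean was 1.81 ± 0.79 in MOV and 0.14 ± 0.60 in sham (SD, n = 5 differences).

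The mean of the 9 antiviral genes differed by 0.17, 1.54, -0.59, 1.27 and 0.41 in MOV and by 0.26, -0.60, 0.27, -0.03 and 0.23 in sham. All 9 were higher in the mimic leg in MOV replicates 2 and 4, 7 in replicate 5, 4 in replicate 1 and 1 in replicate 3. Among the antiviral genes Ifit3 alone was higher in the mimic leg in all 5 MOV replicates (0.79 ± 0.75), and Isg15 was higher in 2 of 5 (0.01 ± 1.31). Zbp1 exceeded all 9 antiviral genes in MOV replicates 1, 3 and 5, and 8 of the 9 in replicate 4. In MOV replicate 2 it exceeded 4 of the 9 and lay 0.03 from their mean. The difference of Zbp1 exceeded the mean of the 9 by between 0.03 and 2.42 in MOV (1.24 ± 0.89) and by 0.12 ± 0.46 in sham. Zbp1 was chosen by its change in these MOV libraries and the 9 were not, so the choice itself favoured an excess in MOV. The largest excess, 2.42 in MOV replicate 5, rests on 6 counts of Zbp1 in the control library.

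**Figure D2:**
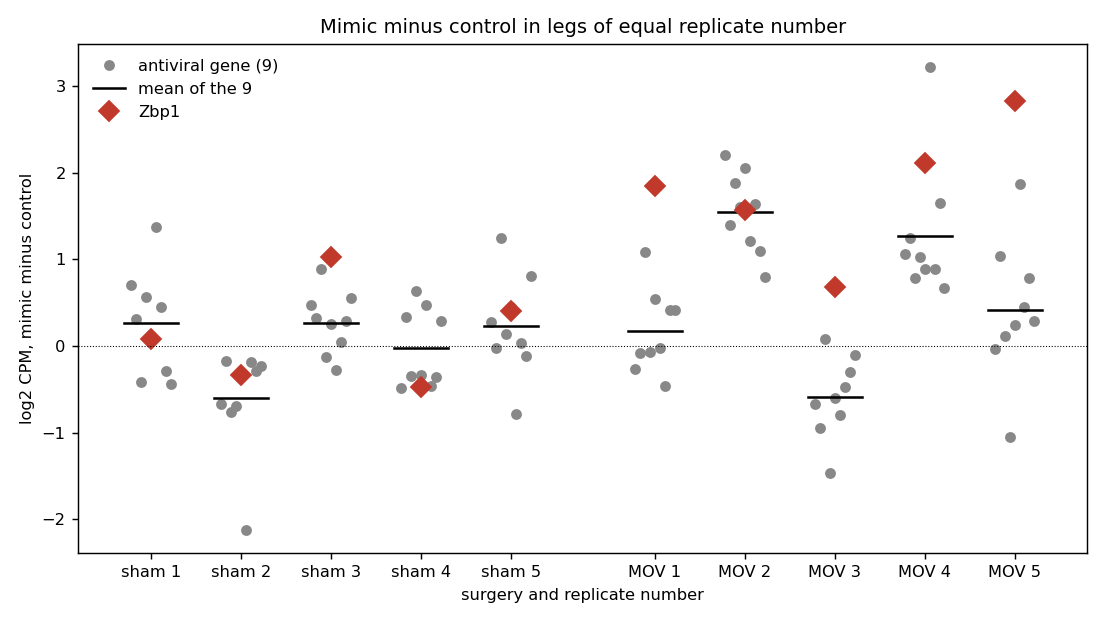
Mimic minus control in log2 CPM for Zbp1 (diamonds), each antiviral gene (grey points) and their mean (bars), by surgery and replicate number. Zbp1 lies above 0 in all 5 MOV replicates, while the mean of the 9 antiviral genes lies at -0.59 in MOV replicate 3 and 0.17 in MOV replicate 1.

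The level of Zbp1 ran closely with the antiviral genes from library to library. After the group means were removed, Pearson's r with Zbp1 over the 20 libraries was 0.91 for Irf7, 0.90 for Ifit1, 0.89 for Oasl2 and 0.84 for both Usp18 and Rsad2. It was 0.83 for Ifit2 and Isg15, 0.82 for Ifit3 and 0.51 for Mx1. The median was 0.836 (Spearman's rho 0.85), against a median of -0.031 and a 95th percentile of 0.587 over 16165 genes. Irf7 was placed 11th and Mx1 1385th among these genes. Without the 2 libraries farthest in Zbp1, replicate 5 of MOV control and of MOV mimic, the median was 0.872. The 36 pairs among the 9 antiviral genes had a median r of 0.848, so that Zbp1 was about as like them as they were like each other.

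These correlations are descriptions with no p: a mouse gave 2 legs, and libraries share depth and cell make-up. In the 10 sham libraries, which had no part in choosing Zbp1, the median r was 0.903 (0.671 to 0.964), and in the 10 MOV libraries it was 0.853 (0.43 to 0.907). The gap between Zbp1 and the mean of the 9 in log2 CPM was 0.94 ± 0.79 in MOV mimic and -0.30 ± 1.47 in MOV control, and in sham it was -0.28 ± 0.59 with the mimic and -0.40 ± 0.51 with the control virus (SD, n = 5). In MOV control replicate 5, with 6 counts of Zbp1, the gap was -2.66, and without it the MOV control mean was 0.28 ± 0.75 (SD, n = 4), an alternative chosen after seeing the data. The choice of Zbp1 by its change after overload also favoured a wider gap in MOV mimic than in MOV control.

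**Figure D3:**
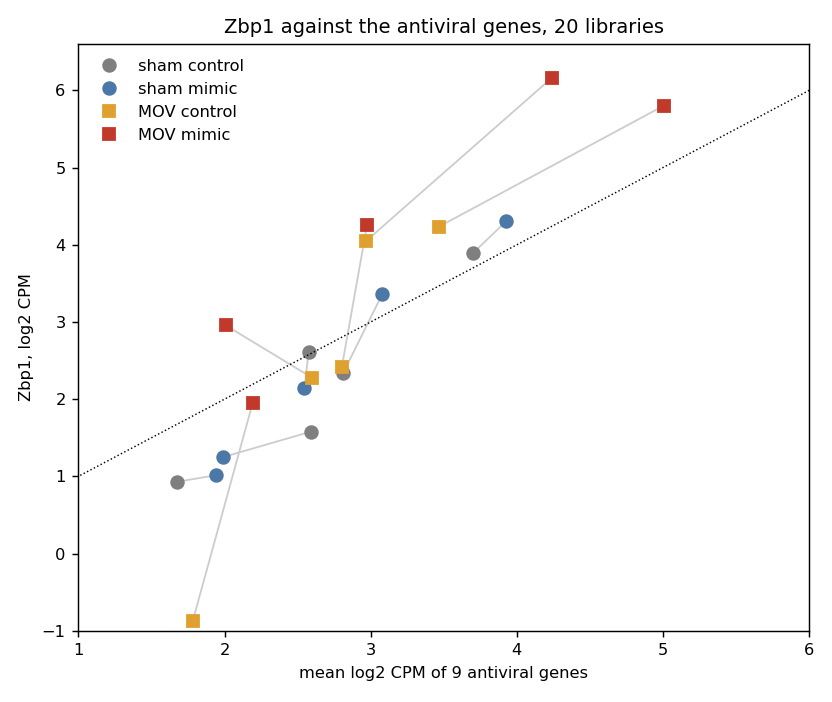
Zbp1 against the mean of the 9 antiviral genes, both in log2 CPM, in 20 libraries; grey lines join legs of equal replicate number and the dotted line marks equal values. Zbp1 rises with the antiviral mean in both surgeries, and the MOV mimic libraries lie on average 0.94 above the dotted line.

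Over the 10 mimic minus control differences, with the surgery means removed, the likeness was lower. The median r was 0.347 (0.063 for Isg15 to 0.649 for Rsad2), against a 95th percentile of 0.585 over all genes. It was 0.212 without the 2 differences farthest in Zbp1, MOV replicates 3 and 5. It was 0.116 without MOV replicate 3 alone and 0.604 without MOV replicate 2. The 36 pairs among the 9 antiviral genes had a median r of 0.652 on this measure.

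The 5 genes most like Zbp1 over the 20 libraries, by Pearson's r, were Il18bp (0.936), Nlrc5 (0.928), Irf1 (0.918), Parp14 (0.915) and Bst2 (0.912). Il18bp encodes the decoy receptor of interleukin 18, Nlrc5 the regulator of MHC class I genes, and Bst2 (tetherin) holds budding virus at the cell surface. Over the 10 mimic minus control differences the 5 most like were others, namely Gda (0.927), Spcs2 (0.913), Plcl2 (0.902) and 2 genes without a symbol, and none of the first 5 was among them. With 16165 genes and only 10 points, values of r this high can arise by sampling alone, so no relation to Zbp1 is read from that list.

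**Figure D4:**
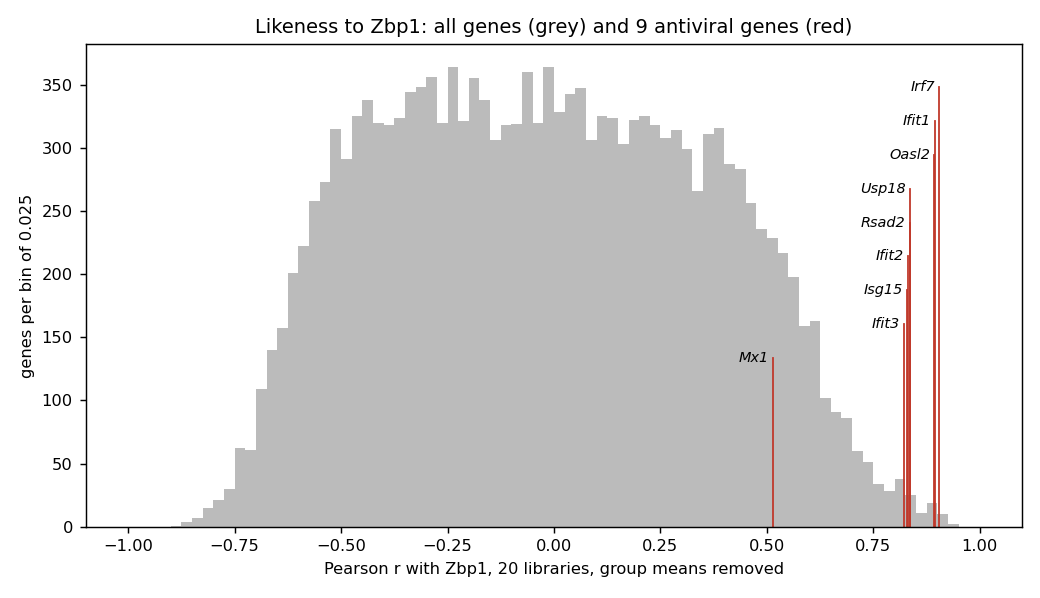
Pearson's r with Zbp1 over 20 libraries, group means removed, for all genes (grey histogram, genes per bin) and the 9 antiviral genes (red lines, whose heights only separate the names). Mx1 lies at 0.51 and the other 8 between 0.82 and 0.91, above the 95th percentile of 0.587.

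Of the 10 ligands listed, 8 were matched to a gene, without Ifna1 and Ifna5, and those matched were scarcely counted. The handling of reads shared between genes was not given. Ifna2, Ifna4, Ifnl2 and Ifnl3 had 0 counts in all 20 libraries, which allows up to 3 counts, or 0.13 to 0.249 CPM before TMM normalization, in a library, by counting error alone. Ifnb1, the main type I interferon of fibroblasts, had 4 counts in MOV control replicate 5 and 0 elsewhere. Ifng, made by T and NK cells, had 59 counts (2.77 CPM) in MOV mimic replicate 2 and 141 counts (10.4 CPM) in MOV mimic replicate 4, and at most 10 counts in any other library. Those 2 libraries had the highest Zbp1.

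The receptor and ISGF3 genes were 7, and edgeR and DESeq2 called none in either tested comparison. Over all genes, edgeR called 0% in sham mimic against sham control and 0.00668% in MOV control against sham control. DESeq2 called 0 genes and 6.1%, in the same order. The same shares apply to each list below. The receptor chains Ifnar1 and Ifnar2 had an r with Zbp1 of 0.506 and 0.038. In ISGF3, Stat2 had 0.899 and Irf9 0.848. In MOV control against sham control, Tyk2 was at a log2 fold change of 0.48 (edgeR adjusted p = 0.201) and Stat2 at 0.32 (edgeR adjusted p = 0.679). In the contrast that chose Zbp1, Stat2 was at 0.78 and Irf9 at 0.53.

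Among the 9 genes of the Zbp1 cell death pathway, none was called in either tested comparison by edgeR or DESeq2. In MOV mimic against MOV control 8 of the 9 were above 0, with a median log2 fold change of 0.42, against 49.3% of all genes. Their median r with Zbp1 over the 20 libraries was 0.687, with 5 of 9 above the 95th percentile, and over the 10 differences it was 0.286, with 1 of 9. Ripk3, the kinase that Zbp1 recruits, was at 4.48 ± 3.09 (control) and 4.91 ± 1.62 CPM (mimic) after sham surgery and at 4.20 ± 2.36 (control) and 5.70 ± 2.15 CPM (mimic) after MOV (SD, n = 5), with an r of 0.111 with Zbp1. Mlkl was at 4.17 ± 1.58, 4.56 ± 1.60, 4.69 ± 2.01 and 6.84 ± 3.24 CPM in the same order, with an r of 0.687. The levels of Ripk3 varied less between groups than within them.

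Of the other antiviral genes, 29 were tested in MOV control against sham control and 28 in sham mimic against sham control, and edgeR and DESeq2 called 0 of them. Ifi35 came nearest in MOV control against sham control, at a log2 fold change of 0.71 (edgeR adjusted p = 0.158). In MOV mimic against MOV control 29 of 29 were above 0, with a median of 0.67, against 49.3% of all genes. Over the 20 libraries 23 of 29 had an r with Zbp1 above the 95th percentile of all genes, against 8 of 29 over the 10 differences.

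Of the 18 interferon-gamma genes tested, edgeR called none in either tested comparison, and DESeq2 called 1, Jak2, lower in MOV control than in sham control, against 6.1% of all genes called by DESeq2 there. In that comparison Jak2 was at -0.90 (edgeR adjusted p = 0.063) and the T cell chemokine Cxcl9 at 2.30 (edgeR adjusted p = 0.131). In MOV mimic against MOV control 17 of 18 were above 0 with a median of 1.20, against 49.3% of all genes. Gbp3 was at 1.37 and Irf1 at 0.91. Of the 18, 15 had an r with Zbp1 above the 95th percentile, among them Gbp3 at 0.888 and Irf1 at 0.918. Over the 10 differences 0 of the 18 lay above it (highest 0.513), with Gbp3 at 0.303 and Irf1 at 0.459. The 13 genes of nucleic acid sensing had a median r of 0.469, and none was called by either tool.

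The sum of the leukocyte markers was highest in a MOV mimic library, while single markers such as Cd68 and Csf1r peaked in other groups. The summed level of the 14 markers ran from 96.5 to 257 CPM in MOV mimic and from 47.7 to 188 CPM in MOV control, and in sham from 56.4 to 186 CPM with the mimic and from 54.5 to 210 CPM with the control virus. In MOV mimic against MOV control 10 of the 11 tested were above 0, with a median log2 fold change of 0.87, against 49.3% of all genes. By replicate number their median difference was 0.96, 0.75, 0.09, 2.20 and 0.04 in MOV, and MOV replicate 5, with 0.04, had the largest difference of Zbp1. Replicate 4 of MOV control had the lowest marker sum, 47.7 CPM, and Zbp1 at 16.5 CPM. Replicates 2 and 4 of MOV mimic had the highest sums of all libraries, 257 and 223 CPM, and also the highest Zbp1. Within MOV mimic, replicate 5 was lowest in both, at 96.5 and 3.74 CPM. By equal replicate number, the sum was higher in the mimic leg in every MOV replicate and in sham replicates 1, 3 and 5, as Zbp1 was. The neutrophil marker Ly6g had 0 counts in 19 of 20 libraries. The median r of the markers with Zbp1 was 0.269, and 1 of 12 lay above the 95th percentile. Muscle fibre markers differed by 0.23, -0.92, 0.27, -0.53 and -0.73 in the same MOV replicates. The part of leukocytes and of fibre content in the members' values was not tested, and in bulk muscle more cells of a type and more RNA per cell cannot be told apart.

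**Figure D5:**
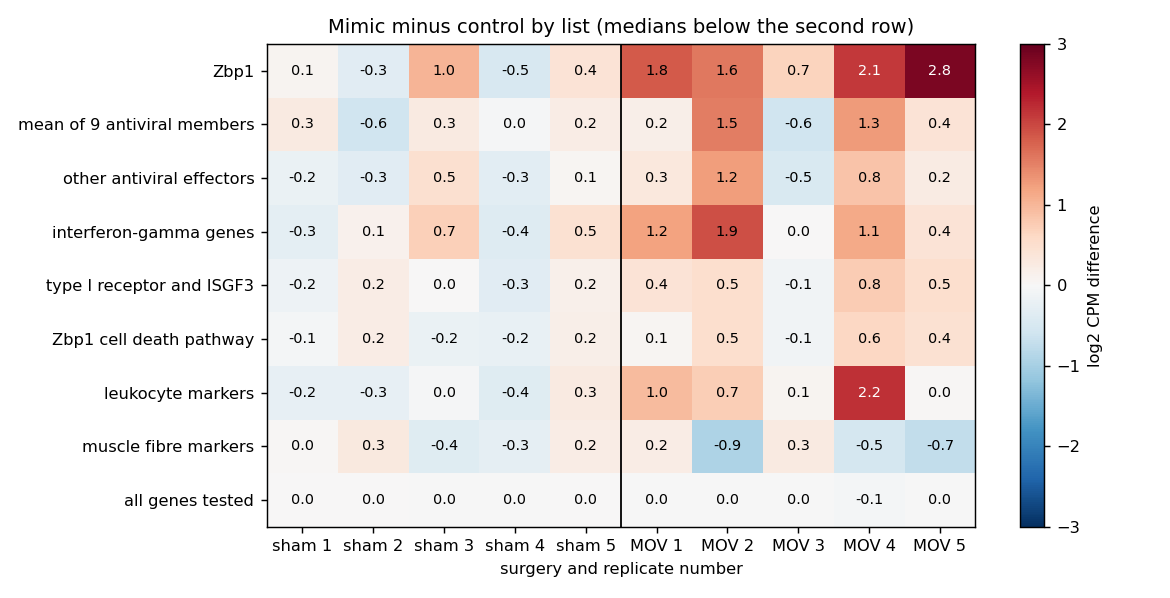
Mimic minus control (log2 CPM) of Zbp1, the mean of the 9 antiviral members and the median of each other list, by surgery and replicate number; red is higher in the mimic leg. The antiviral mean and the interferon-gamma median lie above 0 with Zbp1 in MOV replicates 1, 2, 4 and 5, at 0.17 and 1.20 in replicate 1 and at 0.41 and 0.42 in replicate 5, and the antiviral mean is at -0.59 in replicate 3.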

How the data were processed

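RNA-seq counts of 20 plantaris libraries were used. The files deposited by the authors hold unnormalized counts for each Ensembl gene, in 1 table for control and 1 for mimic libraries, made with cutadapt 4.4, Trim Galore 0.6.10, HISAT2 2.0.5 (GRCm38) and featureCounts 1.5.0-p3. The annotation release, strand setting and handling of multi-mapping reads were not given in the sources used here. Symbols were found for 32640 genes. Groups came from the labels. Each comparison was fitted on its 10 libraries with edgeR 4.0.16 (quasi-likelihood test, TMM, filterByExpr, two-sided, Benjamini-Hochberg over all genes tested, adjusted p under 0.05). DESeq2 1.42.0, DESeq2 size factors, no filter, all 20 libraries, a replicate block and leaving out each library were alternatives. log2 CPM used a prior count of 2. The fits were tested on simulated data first. Counts between 12036360 and 23056525 per library limit precision for genes near 1 CPM.

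The members and lists were chosen with earlier results of these data known. Named genes were the 10 members, interferon, receptor, ISGF3 and cell death genes with Gbp3 and Irf1 by role, members of each list with the smallest adjusted p in MOV control against sham control, the near copy Ifit3b, and the 5 genes most like Zbp1. Acta1 and Ly6g are named from the marker lists, and genes of counts of 5 or fewer, and those most like Zbp1 over the differences, outside this rule after their values were seen. Analyses ran in R 4.3.3 and Python 3.11.15 (pandas 2.3.3). The values of 1 gene of these lists are not reported here.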

Additional observations from a re-analysis of the deposited data

Results flagged for a closer look

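In 6 of 40 groups of 5 libraries (10 members in 4 groups), 1 library lay far from the other 4 by Dixon's ratio (critical value 0.71), where chance marks about 1 in 20. All 6 were replicate 5 of a sham group. The rate of 1 in 20 is for independent groups with normal values. The members run together between libraries and their CPM were not log-transformed, so 6 of 40 cannot be set against that rate. Ifit3 reached 26.4 CPM in sham control and 62.6 CPM in sham mimic, Rsad2 17.7 and 16.3 CPM, and Usp18 7.3 and 12.9 CPM. Zbp1 was also highest there within each sham group, at 14.8 and 19.7 CPM, without passing the critical value.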

How the results depend on the processing

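In the tested comparisons 0 of the 10 members was called under every alternative run. The number of genes called in MOV control against sham control was 1, and 914 by DESeq2, 388 without a filter, 36 with all 20 libraries and 0 to 426 when single libraries were left out (426 without sham control 3, 318 without MOV control 5). In MOV mimic against MOV control it was 0, and 3 by DESeq2 and 1 (Snord91a) with all 20 libraries, and 0 to 0 on leaving out libraries. In MOV mimic against sham mimic it was 0, and 223 by DESeq2, 1 (Igfn1) without a filter, 3 (Snord91a, Slc7a6os and Pm20d2) with all 20 libraries and 0 to 101 on leaving out libraries (101 without MOV mimic 5). The cause was not tested.

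With equal numbers as a replicate block, DESeq2 called 127 genes and edgeR 0 in MOV mimic against MOV control, and neither called a gene in sham. The log2 fold change of Zbp1 with the edgeR block was 1.74 in MOV and 0.17 in sham. Deviations of equal numbers correlated at 0.727, -0.00115, 0.179, 0.287 and 0.158 in sham and at 0.0524, 0.263, 0.0638, 0.191 and 0.338 in MOV. The mean correlation with other numbers was -0.273, 0.000723, 0.00575, -0.0121 and -0.012 in sham. In MOV it was -0.00616, -0.0464, -0.00805, -0.0647 and -0.0939. Equal numbers were thus above other numbers in all but sham replicate 2, and the own number was the best match for 4 of 10. The main fits used no pairs because the labels do not tie equal numbers to 1 mouse, and a pairing is not excluded.

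Leaving out single libraries reversed members' log2 fold changes, none of which was called. In sham mimic against sham control the ranges were -0.372 to 0.968 for Zbp1, -0.393 to 0.461 for Ifit1, -0.026 to 0.402 for Ifit2, -0.49 to 1.23 for Ifit3, -0.31 to 0.484 for Isg15, -0.202 to 0.28 for Irf7, -0.451 to 0.252 for Oasl2, -0.714 to 0.442 for Rsad2 and -0.201 to 0.708 for Usp18. In MOV control against sham control they were -0.335 to 0.281 for Ifit1, -0.316 to 0.574 for Ifit3, -0.048 to 0.344 for Irf7, -0.884 to 0.067 for Mx1, -0.711 to 0.129 for Rsad2 and -0.018 to 0.573 for Usp18. The median r of Zbp1 with the antiviral genes was 0.812 to 0.871 over libraries and 0.116 to 0.604 over differences when replicates were left out (0.116 without MOV 3, 0.53 without MOV 5, 0.604 without MOV 2).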
